A study of Mus musculus with 39 samples.

Results

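The miR-29 family was followed on 39 arrays of mouse embryonic stem cells (ESCs) as they differentiated with or without Activin A and Wnt3a. Its 3 members, mmu-miR-29a, mmu-miR-29b and mmu-miR-29c are those that carry the family's name among the 650 mouse miRNAs on the array. The arrays fell into 13 groups of 3. One group was undifferentiated ESCs, line TCL-1, kept with LIF and serum on a feeder layer of mouse embryonic fibroblasts (MEFs) that mitomycin C had stopped from dividing. For the other 12 groups the ESCs were held for 1 h on gelatin so that feeders would be left behind, moved to collagen-coated plates in RPMI 1640 with B27 and, as the labels write it, sodium butyrate, and given Activin A at 100 ng/ml, Wnt3a at 50 ng/ml, both, or neither (control), with RNA taken at days 1, 3 and 5. All groups came from a single ESC line, every differentiated group shared the same basal medium, and the labels do not say whether the 3 arrays of a group came from separate cultures, so that p-values measure only the spread between these samples.

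A miRNA guides the silencing complex to messenger RNAs that pair with its seed, the stretch near its 5′ end, and miRNAs with a common seed share many of their targets. The miR-29 family is known for targeting the DNA methyltransferases Dnmt3a and Dnmt3b, the demethylation enzymes Tet and Tdg, and many extracellular matrix genes, collagens among them. It is abundant in fibroblasts and in many mature tissues. Activin A signals through Smad proteins and at a high dose drives ESCs towards definitive endoderm, and Wnt3a acts through beta-catenin.

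The mature sequences are shown because the members have one seed and differ only downstream of it, which bears on how far an array can tell them apart. They are the RefSeq entries on mouse build GRCm38.p6, written 5′ to 3′, with the seed (bases 2 to 8) in capitals.
mmu-miR-29a-3p: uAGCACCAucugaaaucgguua
mmu-miR-29b-3p: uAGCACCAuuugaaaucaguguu
mmu-miR-29c-3p: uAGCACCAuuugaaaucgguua
The seed AGCACCA was found in 3 of 1679 RefSeq mature mouse miRNA names, and these 3 were the members. Counted from 1 at the 5′ end, miR-29a and miR-29c differed at 1 of 22 bases (C10U, the miR-29a base first). The pair miR-29a and miR-29b differed at 4 of the 22 bases they could be compared over (C10U, G18A, U21G and A22U), and the pair miR-29b and miR-29c at 3 (A18G, G21U and U22A, the miR-29b base first). Whether the probes of one member also caught another was not tested.

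The genes lie in 2 clusters. On chromosome 6, minus strand, the mature miR-29a lies at chr6:31062673-31062694 within Mir29a, and a copy of the mature miR-29b lies at chr6:31063025-31063047 within Mir29b-1, with 275 bases between the 2 hairpins. On chromosome 1, plus strand, the other copy of miR-29b lies at chr1:195037091-195037113 within Mir29b-2 and miR-29c at chr1:195037600-195037621 within Mir29c, with 426 bases between these hairpins. Both copies of miR-29b have the same mature sequence, so the array signal of miR-29b cannot be assigned to either cluster.

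All 3 members were called detected on 39 of 39 arrays, and their passenger strands, miR-29a*, miR-29b* and miR-29c*, on 0 of 39. Between 183 and 375 miRNAs were detected per array, 183 to 249 on the arrays of ESCs and day 1 and 254 to 375 on those of days 3 and 5. The arrays lay on 5 slides and were scanned in 2 sessions, the second of which held both factors at day 3 and all of day 5. In no culture did the arrays of day 1 and day 3, or of day 3 and day 5, share a slide. Of the growth factor groups, Activin A at each day and Wnt3a at day 3 shared a slide with the control of their day, and the others did not. Signals are quoted in the scanner's units as deposited. Each is a total over the 2 probes of a member, but on some arrays it equalled 1 probe alone, as described with the probes below. Levels are log2 of the quantile-normalized signal, given as mean ± SD with n = 3, and a difference of 1 between levels is a 2-fold difference. Levels of different members are not compared, because each has its own probes. Where arrays of a member are said not to overlap between groups, how many of all miRNAs did the same was not counted.

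By normalized level all 3 members were high in undifferentiated ESCs, higher still at day 1, and lower at days 3 and 5. For miR-29c this order holds only after normalization, since its mean deposited signal was 18.1 in ESCs, the lowest of the 13 groups, 34.0 to 55.0 in the day 1 groups and 19.1 to 44.3 in those of days 3 and 5. For miR-29a the 15 arrays of ESCs and day 1 had levels of 8.72 to 9.49, and the 24 arrays of days 3 and 5 had 4.19 to 6.35. The corresponding ranges were 7.24 to 8.32 and 2.67 to 5.71 for miR-29b. For miR-29c they were 5.32 to 6.46 and 3.93 to 5.03. For none of the 3 did the early and the late arrays overlap. In limma's F-test over the 13 groups, adjusted p was 4.84e-31 for miR-29a, 2.08e-17 for miR-29b and 3.33e-18 for miR-29c, where 88.5% of the 373 miRNAs tested passed at an adjusted p of 0.05.

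Within this step the groups could be put in order of their mean level, with neighbours whose arrays did not overlap set apart. For miR-29a the 4 day 1 groups came first, at 9.33 ± 0.18 with Activin A, 9.33 ± 0.10 in control, 9.19 ± 0.05 with Wnt3a and 9.15 ± 0.02 with both factors. These overlapped their neighbours and stood apart from ESCs at 8.77 ± 0.05, which stood apart from Activin A at day 3 (6.2 ± 0.14). Next came, apart from that group but not from each other, the day 3 levels of control (5.70 ± 0.04), of both factors (5.62 ± 0.21) and of Wnt3a (5.58 ± 0.06). The day 5 groups closed the order in 2 separate pairs, Activin A (5.29 ± 0.05) with both factors (5.21 ± 0.10), and control (4.38 ± 0.05) with Wnt3a (4.27 ± 0.12). Neighbours overlapped in 7 of the 12 pairs.

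For miR-29b the order was again day 1 first, with control (8.17 ± 0.14), Activin A (8.14 ± 0.06), Wnt3a (8.01 ± 0.03) and both factors (7.84 ± 0.19), then ESCs at 7.34 ± 0.11. Activin A at day 3 followed at 5.69 ± 0.02. Unlike miR-29a, whose day 5 levels all lay below those of day 3, miR-29b had both factors at day 3 (5.16 ± 0.05), Activin A at day 5 (5.05 ± 0.12) and both factors at day 5 (4.79 ± 0.17) side by side and overlapping. Below them lay Wnt3a (4.41 ± 0.13) and control (4.32 ± 0.48) of day 3, and then Wnt3a (3.78 ± 1.11) and control (3.02 ± 0.02) of day 5. Neighbours overlapped in 7 of 12 pairs, and the exceptions were Activin A and Wnt3a at day 1, both sides of ESCs, Activin A and both factors at day 3, and both factors at day 5 and Wnt3a at day 3.

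For miR-29c the day 1 groups lay between 6.23 and 6.39 and ESCs at 5.47 ± 0.25, apart on either side. The 8 later groups formed a chain of overlapping neighbours, with Activin A highest at 4.83 ± 0.18 at day 3 and 4.64 ± 0.13 at day 5. The others were both factors at day 3 (4.56 ± 0.31), Wnt3a at day 3 (4.40 ± 0.08) and day 5 (4.37 ± 0.12), both factors at day 5 (4.35 ± 0.11), and control at day 3 (4.15 ± 0.24) and day 5 (4.03 ± 0.07). Neighbours overlapped in 10 of 12 pairs, and miR-29c had the narrowest span of levels of the 3 members over days 3 and 5.

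**Figure D1:**
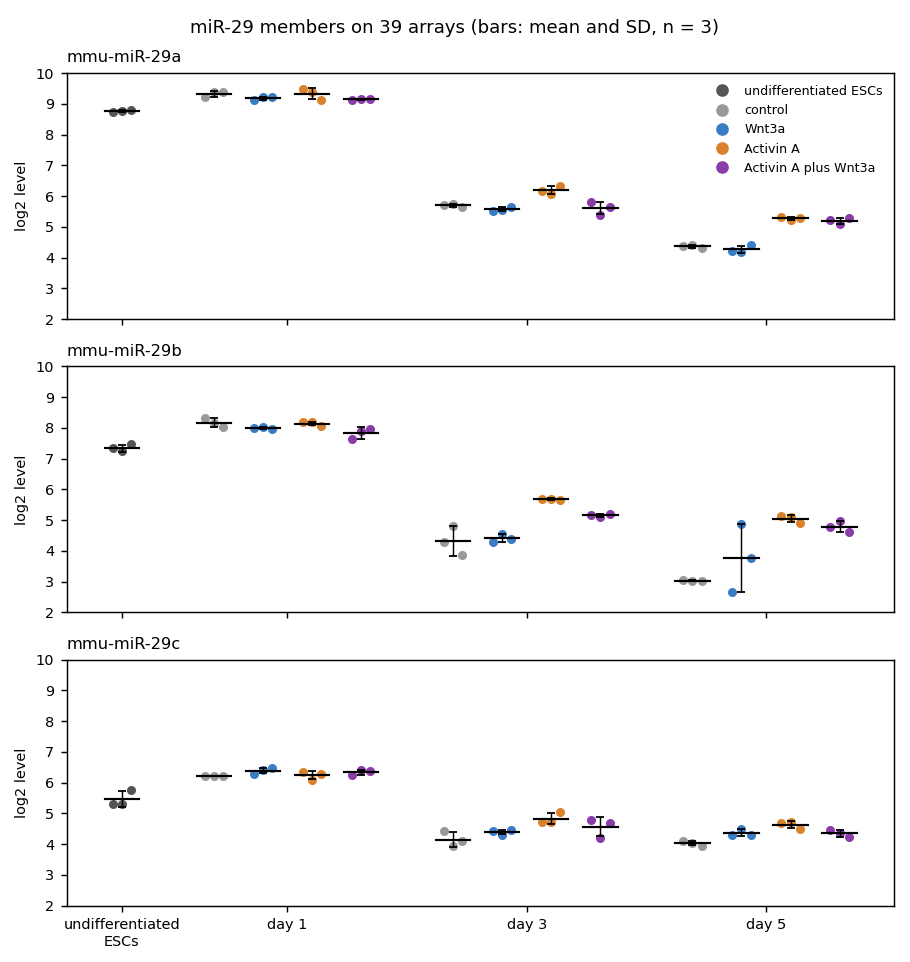
Log2 level of each member on every array (points) in the 13 groups, in a panel for each member, with the group mean and SD as bars. The ESC and day 1 arrays sit above all arrays of days 3 and 5 in each panel, and at day 5 the points of both groups with Activin A lie above those of the control in each panel.

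From undifferentiated ESCs to day 1 of control culture all 3 members rose. The deposited miR-29a signals were 224, 192 and 225 in ESCs and 285, 377 and 327 in the day 1 control. Those of miR-29b were 76.5, 63.3 and 88.8 in ESCs against 134, 150 and 128. Those of miR-29c were 15.1, 13.3 and 25.9 against 28.6, 42.2 and 31.1. For miR-29b and miR-29c the totals of ESC replicates 1 and 2 equalled probe 2 alone. By probe, the miR-29c means were 11.2 and 14.4 in ESCs and 14.8 and 19.2 in the day 1 control. For each member the lowest day 1 array was above the highest ESC array. On the log2 scale the rise was 0.56 for miR-29a (SE 0.09, limma adjusted p = 9.7e-06), 0.83 for miR-29b (SE 0.28, limma adjusted p = 0.024) and 0.77 for miR-29c (SE 0.13, limma adjusted p = 2.7e-05). These were 3 of 3 members, where 17.4% of the miRNAs tested were higher. All 6 arrays were on 1 slide. The miR-29b call was lost when control replicate 1, ESC replicate 1 or ESC replicate 2 was left out, with differences of 0.75 to 0.82.

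Between day 1 and day 3 the family fell in every culture. In the control, the miR-29a level was 9.22, 9.38 and 9.38 on the day 1 arrays and 5.71, 5.74 and 5.67 on the day 3 arrays. The miR-29b level went from 8.32, 8.15 and 8.05 to 4.29, 4.81 and 3.86. The miR-29c level was 6.23 on each of the 3 day 1 arrays, where it held the same rank and so the same normalized value, and 4.41, 3.93 and 4.11 at day 3. These falls were 12.3-fold for miR-29a (limma adjusted p = 3.5e-24), 14.4-fold for miR-29b (limma adjusted p = 1.0e-12) and 4.23-fold for miR-29c (limma adjusted p = 3.6e-14), while 21.7% of the miRNAs tested were lower and 17.2% by more than 2-fold. The deposited signals fell by less. Their means went from 329.8 to 53.2 for miR-29a (6.2-fold), from 137.4 to 21.8 for miR-29b (6.29-fold) and from 34.0 to 19.1 for miR-29c (1.78-fold). The day 1 totals held both probes. At day 3 those of miR-29b on all arrays and of miR-29c on replicate 2 equalled probe 2 alone. That probe by itself fell 5.52-fold for miR-29b and 1.53-fold for miR-29c. In these bulk samples, fewer cells of a type and less of a miRNA per cell cannot be told apart.

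The fall was seen with each growth factor and was smallest with Activin A for all 3 members. With Wnt3a the differences between day 3 and day 1 were -3.61, -3.60 and -2.0 on the log2 scale for miR-29a, miR-29b and miR-29c. With Activin A they were -3.14, -2.45 and -1.42. With Activin A plus Wnt3a they were -3.53, -2.68 and -1.78. All 9 passed limma's test at an adjusted p of 0.05, where 21.7% of the miRNAs tested were lower in the Wnt3a culture and 20.9% in each of the other 2. The difference in the size of the fall between Activin A and control is tested with the growth factor effects.

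MiRNAs that mark fibroblasts, and so could mark feeders left in the culture, were measured on the same arrays. Of 5 defining ones, miR-199a-3p, miR-199a-5p and miR-214 were detected on all 15 arrays of ESCs and day 1, miR-143 on 0 of 3 ESC arrays and 9 of 12 day 1 arrays, and miR-145 on 0 of the 15. At day 3 miR-199a-3p was detected on 11 of 12 arrays and the other 4 on 0 of 12. Their summed normalized signal lay between 383 and 461 on the ESC arrays and between 851 and 946 on those of day 1, and did not exceed 28 on any day 3 array or 66.9 on any day 5 array. Of the 4 defining markers tested, 1 was called higher in the day 1 control than in ESCs, miR-199a-5p by 0.64 (limma adjusted p = 1.4e-04). The differences of miR-199a-3p (1.33, limma adjusted p = 0.092), miR-214 (0.56, limma adjusted p = 0.091) and miR-143 (1.23, limma adjusted p = 0.25) did not pass. From day 1 to day 3 of control 3 of the 4 were called lower, and miR-143 was not, where 21.7% of all miRNAs tested were lower. Among the whole list of 14 fibroblast miRNAs, 13 were tested and 3 were higher and 0 lower in the day 1 control than in ESCs, where 17.4% of all miRNAs tested were higher. From day 1 to day 3 of control 4 were higher and 8 lower, against the same 21.7% lower of all miRNAs tested. The median log2 difference was -1.62 against 0.50 over all miRNAs tested. The summed signal of the 14 was 4973 to 5675 in ESCs and 1112 to 1389 in the day 3 control, as the list holds miRNAs that other cells express too. The part of feeder cells in the levels of miR-29 on the ESC and day 1 arrays was not tested.

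**Figure D2:**
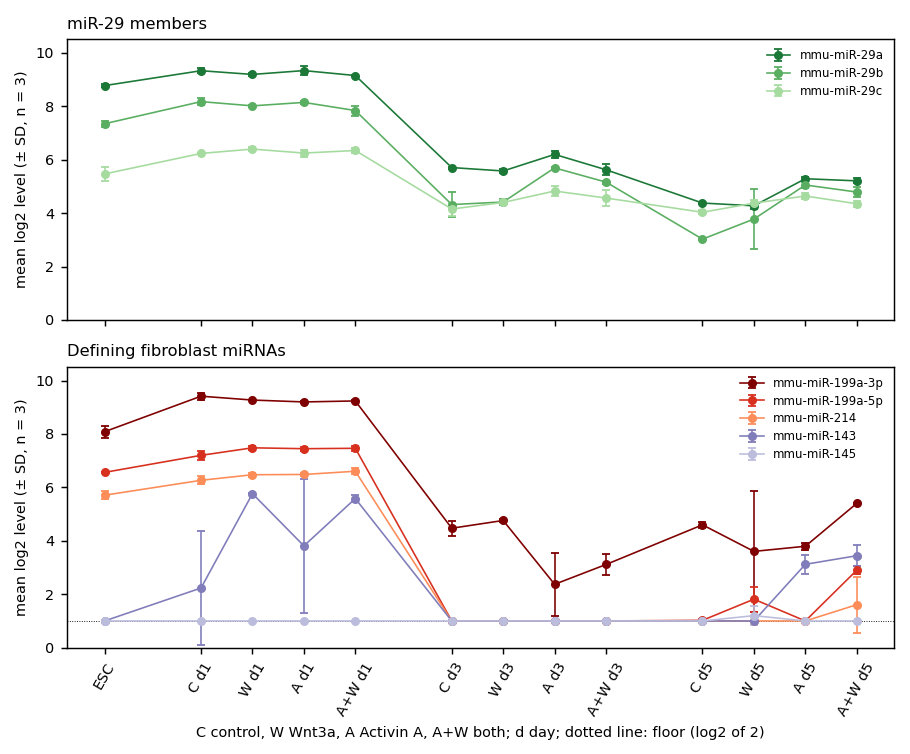
Group means of the log2 level of the 3 members and of the fibroblast marker miR-199a-3p across the 13 groups, with lines that only join the means. MiR-199a-3p stands at 8.08 in ESCs, between 9.20 and 9.41 in the day 1 groups, and at most at 5.4 in all later groups. Among the other defining fibroblast miRNAs, miR-143 and miR-145 were detected on 0 of 3 ESC arrays, and miR-145 on 0 of 12 day 1 arrays.

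From day 3 to day 5 miR-29a and miR-29b fell further in the control. The day 3 and day 5 control arrays lay on different slides and were scanned in different sessions, so that day, slide and session cannot be told apart here, as also with Wnt3a and with Activin A. Day 5 control levels were 4.40, 4.41 and 4.31 for miR-29a and 3.04, 3.02 and 3.02 for miR-29b. Both sets lay below all 3 day 3 control arrays. The differences were -1.33 for miR-29a (limma adjusted p = 4.4e-13) and -1.30 for miR-29b (limma adjusted p = 3.7e-04), and 20.9% of the miRNAs tested were lower. For miR-29c the levels were 4.09, 4.05 and 3.95, within the range of day 3, with a difference of -0.12 (limma adjusted p = 0.55). The median of this difference was -0.39 over the miRNAs detected on all arrays and 0 over the 373 tested. When each array was instead scaled to the 75th percentile of the miRNAs that every array detected, the miR-29c difference turned to 0.52 and passed. Its mean deposited signal was 18.1 in ESCs, 19.1 in the day 3 control and 28.5 in the day 5 control, so that the deposited and the normalized values of miR-29c put ESCs and day 5 control in opposite order. By probe the deposited means were closer, at 11.2 and 14.4 in ESCs and 13.8 and 14.7 in the day 5 control.

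In the cultures with growth factors the day 3 to day 5 change of miR-29a passed the test in each, at -1.30 in the Wnt3a culture, -0.91 in the Activin A culture and -0.42 in that with both (limma adjusted p = 0.0010 for the last), while 23.6%, 8.58% and 7.77% of the miRNAs tested were lower in these cultures. The -0.42 passed in 10 of 14 alternatives and was lost when arrays were scaled to the 75th percentile of all miRNAs (-0.31), with normexp background correction (-0.091), with a slide term (-0.42) and in the methods' t-test. For miR-29b it was -0.64 with Wnt3a (limma adjusted p = 0.069), -0.64 with Activin A (limma adjusted p = 0.15) and -0.37 with both (limma adjusted p = 0.58). For miR-29c it lay between -0.21 and -0.03 and did not pass in any of the 3.

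At day 1 the growth factors made little measurable difference to the family. The 12 day 1 arrays had miR-29a levels of 9.13 to 9.49, miR-29b levels of 7.63 to 8.32 and miR-29c levels of 6.10 to 6.46. Limma's F-test over the 4 day 1 groups gave adjusted p = 0.25 for miR-29a, 0.088 for miR-29b and 0.26 for miR-29c, while 24.2% of the 240 miRNAs tested passed. Against control, Wnt3a (10% of miRNAs higher and 10% lower) and Activin A (1.67% each way) called no member at day 1, where the Wnt3a arrays shared no slide with control. The pairwise tests called only miR-29b with Activin A plus Wnt3a, whose levels were 7.63, 7.91 and 7.98 against 8.32, 8.15 and 8.05 in control. The difference was -0.33 (SE 0.10, limma adjusted p = 0.038), where 12.5% of miRNAs were lower. It was lost when any of 4 of the 6 arrays was left out (Activin A plus Wnt3a replicates 1 and 2, control replicates 1 and 2) and in a fit with a slide term (-0.23), and the 2 groups shared no slide.

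At day 3 Activin A kept all 3 members above control, miR-29b most. For miR-29a the deposited signals were 81.7, 67.1 and 103 with Activin A and 52.9, 55.0 and 51.6 in control. For miR-29b they were 57.8, 52.1 and 68.1 against 22, 25.1 and 18.4. For miR-29c they were 30.6, 26.4 and 43.5 against 23.1, 13.2 and 20.9. Every Activin A array was above every control array for each member. The control totals of miR-29b, and the miR-29c total of 13.2, equalled probe 2 alone, and those with Activin A held both probes. Probe 2 alone gave 2.21-fold for miR-29b and 1.40-fold for miR-29c in deposited signal. On the normalized scale miR-29a was 1.41-fold higher (log2 0.49, SE 0.10, limma adjusted p = 0.0026), miR-29b 2.59-fold (log2 1.37, SE 0.19, limma adjusted p = 2.1e-04) and miR-29c 1.60-fold (log2 0.67, SE 0.17, limma adjusted p = 0.0072). Thus 3 of 3 members rose against control, where 25.5% of the 326 miRNAs tested did, and 1 of 3, miR-29b, by more than 2-fold, where 12.6% did. Within the slide that held all 3 Activin A arrays and control replicates 2 and 3, the differences were 0.49, 1.36 and 0.81. The miR-29c call did not hold when arrays were scaled to that 75th percentile (0.51). In the deposited matrix with its columns as named, where Activin A and both factors are exchanged, the miR-29a difference was -0.093 and did not pass. Limma's F-test over the 4 day 3 groups gave adjusted p = 0.0015 for miR-29a, 3.9e-04 for miR-29b and 0.028 for miR-29c, and 70.2% of miRNAs passed it.

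With Activin A plus Wnt3a at day 3, only miR-29b was called. Its levels were 5.16, 5.10 and 5.21 against 4.29, 4.81 and 3.86 in control, a difference of 0.84 (SE 0.19, limma adjusted p = 0.0038), with 27% of miRNAs called higher. Here too the control total of miR-29b was probe 2 alone, and that probe gave 1.49-fold in deposited signal. MiR-29a stood at 5.81, 5.4 and 5.65, around the control values of 5.71, 5.74 and 5.67 (difference -0.08, limma adjusted p = 0.50). MiR-29c differed by 0.41 (limma adjusted p = 0.060), and was called when Activin A plus Wnt3a replicate 2 (0.59) or control replicate 1 (0.54) was left out. Compared directly, miR-29a was lower with both factors than with Activin A alone, by 0.58 on the log2 scale (limma adjusted p = 0.0034, with 14.4% of miRNAs lower), and the differences for miR-29b, -0.53 (limma adjusted p = 0.065), and miR-29c, -0.26 (limma adjusted p = 0.30), did not pass. The miR-29a call was lost in the methods' t-test, and the miR-29b difference passed in 4 of 14 alternatives. In the deposited matrix with its columns as named, where Activin A and both factors are exchanged, the miR-29a difference turned to 0.63 and passed. That matrix put miR-29a with both factors above control, by 0.54. Which assignment of these arrays is right was not tested. The 3 arrays with both factors were alone among the day 3 arrays on their slide and in their scan session, so slide, session and treatment cannot be told apart in any of these comparisons. The values for Wnt3a alone were -0.13, 0.09 and 0.25 against control, and none passed.

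At day 5 the 2 groups with Activin A lay above control for all 3 members. The miR-29b levels were 5.14, 5.10 and 4.91 with Activin A and 4.77, 4.97 and 4.62 with both factors, against 3.04, 3.02 and 3.02 in control. The miR-29a levels were 5.33, 5.24 and 5.29 with Activin A and 5.21, 5.10 and 5.30 with both, against 4.40, 4.41 and 4.31. The miR-29c levels were 4.70, 4.72 and 4.49 with Activin A and 4.46, 4.35 and 4.23 with both, against 4.09, 4.05 and 3.95. No array of either group overlapped the control for any member, and how many of all miRNAs did the same was not counted. Activin A raised miR-29b 4.08-fold against control (log2 2.03, SE 0.44, limma adjusted p = 0.0052), miR-29a 1.88-fold (log2 0.91, SE 0.08, limma adjusted p = 1.3e-05) and miR-29c 1.52-fold (log2 0.61, SE 0.09, limma adjusted p = 5.9e-04). The deposited miR-29b total of the control (mean 15.2) equalled probe 2 alone, and that with Activin A (56.3) held both probes. Probe 2 of miR-29b alone gave 2.73-fold with Activin A and 2.13-fold with both factors in deposited signal. With both factors the log2 differences were 1.76 for miR-29b (limma adjusted p = 0.0093), 0.83 for miR-29a (limma adjusted p = 1.9e-05) and 0.32 for miR-29c (limma adjusted p = 0.018). All 3 members were called in both comparisons, where 18.2% of the 368 miRNAs tested were higher with Activin A and 21.5% with both, and miR-29b alone by more than 2-fold, where 13.6% and 15.5% were.

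The day 5 calls differed in how well they held. Within the slide that held Activin A replicates 1 and 2 and all 3 control arrays, the Activin A differences were 0.91, 2.10 and 0.68 for miR-29a, miR-29b and miR-29c. The arrays with both factors shared no slide with control, and in a fit with a slide term the miR-29b difference of 1.97 did not pass. The miR-29c call with both factors was lost without replicates 1 or 2 of that group or control replicate 3 (0.26 to 0.32), and when arrays were scaled to the 75th percentile of the miRNAs that every array detected the value turned to -0.050. That scaling also ended the miR-29c call with Activin A (0.20). The median over miRNAs detected on all arrays was 0.14 for Activin A against control at day 5 and 0.23 for both factors. Set directly against each other at day 5, both factors minus Activin A alone gave -0.08, -0.26 and -0.29, and none passed. Limma's F-test over the 4 day 5 groups gave adjusted p = 4.96e-06 for miR-29a, 0.013 for miR-29b and 0.0030 for miR-29c, and 46.5% of miRNAs passed it.

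**Figure D3:**
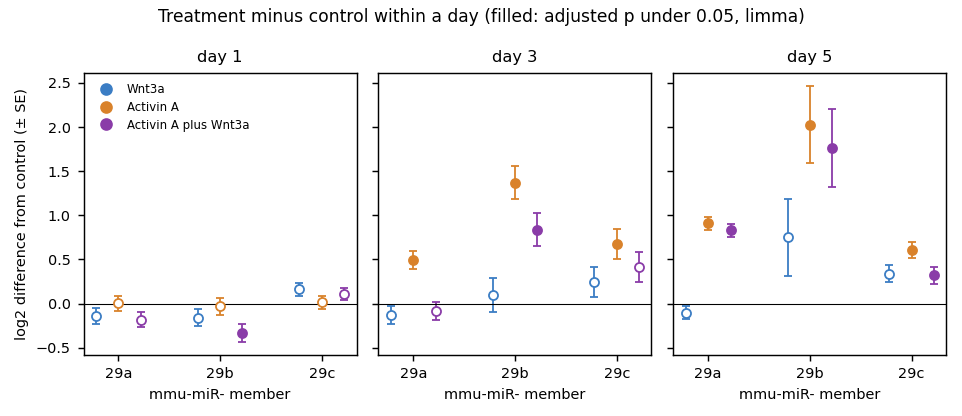
Log2 difference of each member from the control of the same day for Wnt3a, Activin A and both, with bars of 1 SE from limma's fit of that day. At day 1 all values lie between -0.33 and 0.16, and the largest values are those of miR-29b with Activin A and with both at day 5 (2.03 and 1.76).

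Wnt3a alone was not followed by a called change of any member at days 1, 3 or 5, with 15.6% of miRNAs called higher and 19.3% lower at day 3 and 5.43% higher and 2.72% lower at day 5. The day 5 arrays with Wnt3a shared no slide with control. At day 5 the miR-29b signals with Wnt3a were 9.91, 76.7 and 30.5, against 16.8, 13.5 and 15.4 in control. The first of these and the control totals equalled probe 2 alone, and the other 2 Wnt3a totals held both probes. Replicate 1 lay below the control and the other 2 above it, which gave a difference of 0.75 with an SE of 0.44 (limma adjusted p = 0.34). Without replicate 1 the difference was 1.30 and passed, and that of miR-29c went from 0.34 (limma adjusted p = 0.054) to 0.38 and passed. The miR-29a levels of the same arrays were 4.21, 4.19 and 4.41, close to the control.

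Whether the effect of Activin A changed between days was tested as a difference of differences over all 39 arrays. The effect against control was larger at day 3 than at day 1 by 0.49 for miR-29a (limma adjusted p = 0.0059), 1.40 for miR-29b (limma adjusted p = 0.014) and 0.66 for miR-29c (limma adjusted p = 0.012), where 10.2% of the miRNAs tested changed in this direction. These calls held in 8, 11 and 9 of 12 alternatives, with values of 0.22 to 0.54, 0.27 to 2.65 and 0.036 to 1.59. From day 3 to day 5 it grew further for miR-29a, by 0.42 (limma adjusted p = 0.015, with 10.2% of miRNAs), a call lost under both scalings to a 75th percentile (0.21 and 0.13) and with normexp correction (0.0038). The changes of 0.65 for miR-29b (limma adjusted p = 0.31) and -0.07 for miR-29c did not pass. With both factors the miR-29a effect, which was -0.08 at day 3, grew by 0.91 by day 5 (limma adjusted p = 1.5e-06, with 15.5% of miRNAs), though with normexp correction by 0.13 and uncalled, and that of miR-29b grew by 1.17 from day 1 to day 3 (limma adjusted p = 0.034, with 12.3%). Both changes, and the day 3 interactions below, rest on the day 3 arrays with both factors. For these arrays slide, scan session and treatment cannot be told apart. The interaction of the 2 factors passed for miR-29c at day 5, where both together gave 0.63 less than the sum of the single effects (SE 0.13, limma adjusted p = 0.036, with 1.63% of miRNAs in that direction). It passed in 5 of 14 alternatives, with values of -1.62 to -0.047. The day 3 interactions of miR-29a, -0.45 (limma adjusted p = 0.054), and miR-29b, -0.63 (limma adjusted p = 0.13), did not pass, and passed in 7 and 3 of 13 alternatives. These counts leave out the deposited matrix with its columns as named and the fits without an array.

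One of the 5 defining fibroblast markers, miR-199a-3p, was tested at day 3. Its level was 2.10 lower with Activin A than in control (limma adjusted p = 0.0048) and 1.36 lower with both factors (limma adjusted p = 0.036). The summed signal of the 5 defining markers at day 3 was 17.7 to 25.3 in control, 26.4 to 28 with Wnt3a, 0 to 8.43 with Activin A and 6.38 to 10.3 with both. At day 5 it was 24.3 to 26 in control, 5.65 to 37.5 with Wnt3a, 22 to 26.3 with Activin A and 60.2 to 66.9 with both, so that the Activin A group overlapped the control and the group with both factors lay above it. At day 5, miR-199a-3p differed from control by -0.80 with Activin A (limma adjusted p = 0.55) and 0.80 with both (limma adjusted p = 0.52), and miR-143 was higher by 2.12 (limma adjusted p = 3.5e-05) and 2.44. MiR-199a-5p differed by -0.02 with Activin A, uncalled, and was higher by 1.88 with both (limma adjusted p = 4.0e-05). Of 4 defining markers tested at day 5, 1 was higher with Activin A and 2 with both. Of all miRNAs tested, 18.2% and 21.5% were higher. Of the 14 fibroblast miRNAs, 4 were higher and 5 lower of 10 tested with Activin A at day 3, and 3 higher and 4 lower of 13 tested at day 5. Over all miRNAs tested, 25.5% and 18.2% were higher at these days, and the share lower is not given here. The median log2 difference of the list was -0.51 and -0.37, against -0.04 and -0.03 over all miRNAs tested. With both factors 3 were higher and 4 lower at day 3, and 6 higher and 3 lower at day 5. Over all miRNAs tested, 27% and 21.5% were higher with both. The 4 that were higher with Activin A at day 3, as the miR-29 members were, are miR-152 (1.93), miR-31 (0.81), miR-21 (0.35) and miR-22 (0.13), which other cells express too. The part of fibroblasts in the Activin A differences was not tested.

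The members did not change to the same extent. Within each array, the log2 ratio of 2 members removes whatever scales all signals of that array, and the 6 arrays of a day with Activin A, alone or with Wnt3a, were compared with the 6 without by an exact two-sided permutation test, in 9 tests adjusted together. At day 3 the ratio of miR-29a to miR-29b was 0.30 to 0.68 with Activin A and 0.93 to 1.81 without, a mean difference of -0.79 (exact p = 0.00216, the smallest that 6 against 6 allows, adjusted p = 0.0097), and that of miR-29b to miR-29c was higher by 0.64 (exact p = 0.013, adjusted p = 0.029). MiR-29b thus stood higher against both others on the Activin A arrays. Its total signal equalled probe 2 alone in the control and Wnt3a groups of day 3 (means 21.8 and 26.8). With Activin A, alone or with Wnt3a, it held both probes. This adds to the differences of its ratios, by an amount that was not tested. The ratio of miR-29a to miR-29c differed by -0.15 (exact p = 0.30, adjusted p = 0.45).

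At day 5 it was miR-29c that stood lower against the other members. The ratio of miR-29a to miR-29c was 0.51 to 1.07 with Activin A and -0.32 to 0.36 without (difference 0.63, exact p = 0.00216, adjusted p = 0.0097), and that of miR-29b to miR-29c was 1.23 higher (exact p = 0.0065, adjusted p = 0.019). The ratio of miR-29a to miR-29b was 0.60 lower (exact p = 0.12, adjusted p = 0.21), and the arrays without Activin A spread from -0.70 to 1.54, with a Wnt3a array at each end. At day 1 none of the 3 ratios passed (adjusted p = 0.48 to 0.99). The same ratios passed when the deposited signals were used without normalization between arrays. Those signals are the same totals. At day 5 the miR-29b total equalled probe 2 alone in control and on Wnt3a replicate 1. Members that share a cluster, miR-29b and miR-29c on chromosome 1 and miR-29a and miR-29b on chromosome 6, both appear among the pairs with unequal change, and the signal of miR-29b sums over both clusters.

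**Figure D4:**
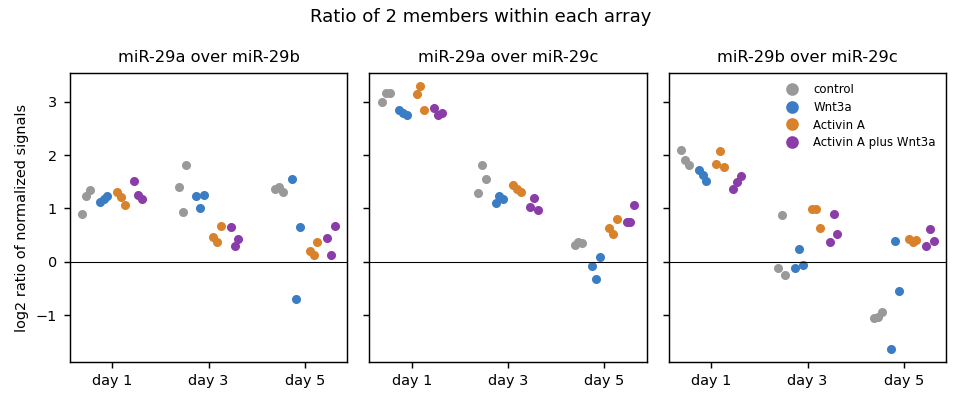
Log2 ratio between 2 members within each array, at days 1, 3 and 5, for the 6 arrays with Activin A (alone or with Wnt3a) and the 6 without. At day 1 the 2 sets overlap for all 3 ratios, at day 3 they are apart for miR-29a over miR-29b, and at day 5 for miR-29a over miR-29c.

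Each member was read by 2 probes with 10 spots each, none of them saturated. Over the 39 arrays the log2 signals of the 2 probes had a correlation of 0.994 for miR-29a, 0.884 for miR-29b and 0.958 for miR-29c, given as a description since the arrays share their groups. In the deposited probe signals at day 5, Activin A over control was 2.05 and 1.74 with the 2 probes of miR-29a, 4.87 and 2.73 with those of miR-29b and 1.49 and 1.61 with those of miR-29c. At day 3 these ratios were 1.69 and 1.52, 2.57 and 2.21, and 1.51 and 1.40. Both probes of every member moved the same way, and for miR-29b at day 5 they differed in size. The total signal did not always hold both probes. That of miR-29b equalled probe 2 alone on all control arrays of days 3 and 5 and all Wnt3a arrays of day 3. It also did so on Wnt3a replicate 1 of day 5 and ESC replicates 1 and 2. That of miR-29c did so on ESC replicates 1 and 2 and control replicate 2 of day 3. This enters every comparison of those groups, normalized ones and changes of an effect between days among them. Day 1 over day 3 of control gave 5.78 and 6.42 for miR-29a, 3.95 and 5.52 for miR-29b and 1.40 and 1.53 for miR-29c, less than the normalized falls.

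Other miRNAs known to target DNA methylation or demethylation enzymes were examined as a list of 9. With Activin A at day 3, 5 were higher and 1 lower of 8 tested, where 25.5% of all miRNAs tested were higher. The median log2 difference was 0.37 against -0.04 over all 326. The shares of all miRNAs tested that were lower with Activin A or with both factors are not given here. The 5 included miR-148a, which targets Dnmt1 and Dnmt3b (0.63, limma adjusted p = 4.0e-06), its relative miR-152, which targets Dnmt1 (1.93, limma adjusted p = 0.0089), and miR-101a and miR-101b, which target Dnmt3a among others (0.80, limma adjusted p = 0.0011, and 0.60, limma adjusted p = 5.1e-04). MiR-26a, which targets Tet enzymes, was lower, by 0.25 (limma adjusted p = 0.0048). With both factors at day 3 the counts were again 5 higher and 1 lower, where 27% of all miRNAs tested were higher. At day 5, 2 of 9 were higher with Activin A (miR-143 and miR-152) and 3 with both factors (these and miR-22), where 18.2% and 21.5% of all miRNAs tested were higher. MiR-143, miR-152 and miR-22 are also on the fibroblast list.

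Lists for the other cell types that such cultures can hold changed as follows. All 9 miRNAs of the miR-290 cluster, which marks ESCs, fell from day 1 to day 3 of control, and 9 of 9 were higher than control with Activin A at day 3 and 8 of 9 at day 5. Of all miRNAs tested, 21.7% were lower in that step, and 25.5% and 18.2% were higher with Activin A at days 3 and 5. Of 6 miRNAs related to endoderm and epithelium (miR-375 and the miR-200 family), 6 were higher with Activin A at both days. Of 4 neural miRNAs, 2 were higher and 2 lower with Activin A at day 3 and 4 were lower at day 5. Their median log2 difference was -0.75 at day 3 and -3.42 at day 5, against -0.04 and -0.03 over all miRNAs tested. The share of all miRNAs tested that was lower with Activin A is not given here. Of 4 blood miRNAs, 1 was tested, and it passed with Activin A at neither day. With both factors at day 3, 9 of 9 ESC and 6 of 6 endoderm-related miRNAs were higher than control, where 27% of all miRNAs tested were. With Wnt3a alone at day 3, 8 of 9 and 4 of 6 were higher, where 15.6% of all miRNAs tested were. The make-up of the cultures was not measured, and its part in the miR-29 levels was not tested.

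The miRNAs whose pattern over the 13 group means was most like that of a member were named by the correlation of those means, among 309 compared, as a description in which all points share their arrays. For miR-29a they were miR-7a (0.975), miR-34c (0.970) and miR-34b-5p (0.970). For miR-29b they were miR-34c (0.983), miR-34b-5p (0.981) and let-7c (0.971), and for miR-29c miR-34b-5p (0.984), let-7g (0.975) and let-7b (0.974). Let-7 miRNAs are low in ESCs, where Lin28 blocks their maturation, and mature in differentiated cells. Here let-7b and let-7g had levels of 3.82 ± 2.44 and 4.06 ± 2.65 in ESCs, where each was detected on 2 of 3 arrays. Their means were 6.66 to 6.90 at day 1 and stood at the floor of 1.00 in all 8 groups of days 3 and 5. The members had correlations with each other of 0.979 for miR-29a and miR-29b, 0.960 for miR-29a and miR-29c and 0.969 for miR-29b and miR-29c. The last 2 lie below those of all 3 miRNAs named for either member of the pair. Each of these 6 other miRNAs had a lower mean in all 8 groups of days 3 and 5 than in any day 1 group, as the members did. Within groups, the deviations of the arrays from their group mean had correlations of -0.01 for miR-29a and miR-29b, 0.40 for miR-29a and miR-29c and 0.18 for miR-29b and miR-29c over the 39 arrays.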

How the data were processed

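The 39 Agilent 1-colour arrays were assigned to groups by their labels alone. The intensity values used are the total gene signals of the scanner output that the authors deposited: Feature Extraction, version 10.7.3.1 per the file headers and 9.5.3.1 per the submitters' processing notes, subtracted background and combined the probes of each miRNA, and wrote 0.1 for a miRNA not detected. The detection flags in the deposited files, the other values used, were set by the same software. A processed matrix that the authors deposited has log2 values, floored and quantile normalized. It was kept as an alternative since 18 of 39 columns follow the rank order of another array's scanner output, exchanged between Activin A and Activin A plus Wnt3a. The labels of the scanner output were used, and which assignment is right was not tested.

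Quantile normalization covered all 39 arrays, then values under 2 were set to 2 and log2 was taken. MiRNAs detected on at least 2 of 3 arrays of 1 group of a fit were tested with limma 3.58.1 (R 4.3.3; statmod 1.5.0) and Benjamini-Hochberg adjustment over all of them at 0.05: 240, 326 and 368 miRNAs in the fits of days 1, 3 and 5 (12 arrays each) for growth factors, and 373 in the fit of 13 groups for days and for changes of an effect between days. The comparison of effects at day 3 and day 1 was added after the data were seen. Ratios of members were tested in SciPy 1.17.1. The scripts were tested on simulated data. Members and lists were chosen with earlier results of these data known. Named miRNAs are the members, their passenger strands, the 3 miRNAs most like each member among those detected on all 3 arrays of at least 4 groups, and list members beside a result. The lists were fibroblast (14, of which 5 defining), DNA methylation (9), ESC (9), neural (4), endoderm-related (6) and blood (4).

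Samples with the same replicate number did not deviate together (correlations of -0.49 to 0.39 over 54 pairs of samples), so the numbers were not taken to pair them. No 2 arrays of a group were copies of each other: at least 197 miRNAs differed in value in each pair. Whether they differed by more than the noise of repeated arrays was not tested. Each array had 13000 spots that were not controls, a local background of 35 to 42 and 0 saturated spots. The limit of detection was highest on the ESC and day 1 arrays, where the lowest detected level was 3.62 to 5.10 against 1.00 to 3.49 later. Low signals limit precision, and the largest SDs of a member were those of miR-29b later, 0.48 in control at day 3 and 1.11 with Wnt3a at day 5. The number of arrays and of spots also limits the precision of an intensity. Alternatives were 2 scalings, 2 other quantile normalizations, normexp correction, 2 floors, the deposited matrix as named and matched, 2 filters, slide as a term or a random block, the replicate number as a block, other sets of samples in the fit, the methods' t-test, and leaving out each array.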

Additional observations from a re-analysis of the deposited data

Results flagged for a closer look

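Several effects differed between days or factors by a test of the difference itself, all in limma's fits with adjustment over all miRNAs tested. The effect of Activin A against control was larger at day 3 than at day 1 for miR-29a by 0.49 (SE 0.12, adjusted p = 0.0059), for miR-29b by 1.40 (SE 0.40, adjusted p = 0.014) and for miR-29c by 0.66 (SE 0.18, adjusted p = 0.012). The miR-29b value lost its call without control day 3 replicate 3 (1.17), and the miR-29c value without Activin A day 3 replicate 3 (0.56) or control day 3 replicate 2 (0.55). Of the other alternatives, scaling to the 75th percentile of all miRNAs or of those detected on all arrays ended the call of miR-29a (0.40 and 0.41) and of miR-29c (0.47 and 0.48). Quantile normalization of log2 signals ended that of miR-29a (0.54), normexp correction that of miR-29c (0.036), and a slide term those of miR-29a (0.39) and miR-29b (1.35).

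From day 3 to day 5 the Activin A effect on miR-29a grew by 0.42 (SE 0.12, adjusted p = 0.015), and without Activin A day 3 replicate 2 by 0.36, no longer called. It was also lost under the same 2 scalings (0.21 and 0.13) and with normexp correction (0.0038). The effect of both factors on miR-29a grew by 0.91 (SE 0.12, adjusted p = 1.5e-06) and kept its call without any 1 of the 12 arrays, and lost it with normexp correction (0.13). The effect of both factors on miR-29b was larger at day 3 than at day 1 by 1.17 (SE 0.40, adjusted p = 0.034) and lost its call in 8 of 12 fits that left out an array, with values of 0.94 to 1.42, and without a detection filter (1.17). Each of these changes with both factors takes in their day 3 arrays, where slide, scan session and treatment cannot be told apart.

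At day 5 the effects of Activin A and Wnt3a on miR-29c did not add up, with an interaction of -0.63 (SE 0.13, adjusted p = 0.036). It lost its call in 7 of 12 fits that left out an array, with values of -0.70 to -0.56. It passed in 5 of 14 other alternatives, whose values ran from -1.62 to -0.047, and was lost under both scalings, both other quantile normalizations, normexp correction, a floor before normalization, the deposited matrix matched to arrays and both other detection filters.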

How the results depend on the processing

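The Activin A differences of miR-29a and miR-29b from control at days 3 and 5, and the fall of all 3 members from day 1 to day 3 of control, passed under every alternative run, save miR-29a at day 3 in the deposited matrix with columns as named, and without any 1 array. Of 2292 alternative values, 71 had the opposite sign to a value that passed under neither. The slide term could not be fitted for the group with both factors at day 3 or for most steps from day 3 to day 5. The cause of the changes was not tested, save that the exchanged columns swap Activin A with both factors.

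Scaling to the 75th percentile moved the median difference of the miRNAs detected on all arrays: it was 0.34 rather than 0.06 for day 1 against ESCs, and -0.19 (percentile of these miRNAs) or -0.49 (percentile of all miRNAs) rather than -0.39 for control day 5 against day 3. Over all miRNAs it gave miR-29b with both factors at day 1 -0.60, miR-29c with both at day 5 0.18 and the day 3 F-test of miR-29c an adjusted p of 0.069, none of them passing. Over those detected on all arrays it gave miR-29a and miR-29b with Wnt3a at day 1 -0.43 and -0.29, now called, miR-29a with both at day 1 -0.46, called, miR-29c with Activin A 0.51 at day 3 and 0.20 at day 5 and with both at day 5 -0.050, all uncalled, and miR-29c from day 3 to day 5 of control 0.52, called. Its F-tests gave 0.032 and 0.0044 for miR-29a and miR-29b at day 1, and 0.16 and 0.095 for miR-29c at days 3 and 5.

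Quantile normalization of log2 signals gave miR-29c with both at day 5 0.74, miR-29b at day 1 against ESCs 0.84 and the day 3 F-test of miR-29c 0.063, all uncalled. The normexp correction, whose offset shrinks the differences (day 3 minus day 1 of control to -2.0, -1.32 and -0.34), gave miR-29c with Wnt3a at day 1 0.092 (called), with Activin A at day 3 0.052, with both at day 5 0.037, and F-tests of 0.12 and 0.058 at days 3 and 5. A floor before normalization gave miR-29c with both at day 5 0.30 (uncalled). Without a detection filter, miR-29b with both at day 1 was -0.33 (uncalled) and the day 3 F-test of miR-29c was 0.078.

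The deposited matrix as named gave miR-29b with Activin A at day 1 -0.34 (called) and with both -0.012, an interaction of 0.47, and a rise over ESCs of 0.83. It gave miR-29a at day 3 -0.093 with Activin A, 0.54 with both, a direct difference of 0.63, an interaction of 0.78 and a change of the Activin A effect from day 1 of -0.012. It gave miR-29c 0.61 with Activin A and 1.03 with both at day 3, and 0.45 with Activin A and an interaction of 0.015 at day 5. Matched to their arrays, the columns gave miR-29c with both at day 5 0.45 and miR-29b over ESCs 0.83, both uncalled.

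With a slide term miR-29b with both factors was -0.23 at day 1 and 1.97 at day 5, both uncalled, and with slide as a random block -0.28 at day 1, with miR-29c with Wnt3a at day 5 0.29 (called). With the replicate number as a block, miR-29b with both at day 1 was -0.33 and uncalled, and miR-29c with both at day 3, 0.41, and with Wnt3a at day 5, 0.34, were called. The block changed no other call. One fit of all 39 arrays gave miR-29b with both at day 1 -0.33 (uncalled) and miR-29c with both at day 3 0.41 (called). The methods' t-test gave miR-29b with both -0.33 at day 1 and 0.84 at day 3, neither below 0.05 after adjustment.

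Leaving out each array gave -0.40 to -0.23 for miR-29b with both at day 1, 0.30 to 0.59 for miR-29c with both at day 3 and 0.26 to 0.38 at day 5, 0.20 to 1.30 for miR-29b and 0.27 to 0.38 for miR-29c with Wnt3a at day 5, 0.75 to 0.89 for miR-29b at day 1 against ESCs, and F-tests of 0.019 to 0.37 for miR-29a at day 1 (below 0.05 without Activin A replicate 3) and 0.0071 to 0.079 for miR-29c at day 3 (above 0.05 without Activin A replicate 3 or control replicates 2 or 3).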

Other observations

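Likeness of pattern over the 8 groups of days 3 and 5 alone was computed after the likeness over all 13 groups had been seen, so that the step between day 1 and day 3 does not set it. Among 305 miRNAs the highest correlations of group means were with miR-433* (0.968), miR-497 (0.967) and miR-183 (0.963) for miR-29a. For miR-29b they were with miR-367 (0.974), miR-183* (0.969) and miR-200c (0.966). For miR-29c they were with miR-377 (0.876), miR-141 (0.850) and miR-466f-3p (0.847). None of these 9 was among the miRNAs named over all 13 groups.

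MiR-200c and miR-141 belong to the miR-200 family of epithelial miRNAs, and miR-367 comes from the miR-302 cluster of pluripotent and early endoderm cells. The mean level of miR-367 at day 3 was 9.82 in control, 9.60 in the Wnt3a group, 10.92 in the Activin A group and 10.71 in the group with both, and at day 5 it was 8.07, 8.53, 10.53 and 10.35. That of miR-200c in the same order of groups was 5.75, 5.98, 7.43 and 7.30 at day 3 and 3.92, 4.80, 7.08 and 7.23 at day 5. Over these 8 groups the members were less alike than over 13, with 0.835 for miR-29a and miR-29b, 0.594 for miR-29a and miR-29c and 0.881 for miR-29b and miR-29c. All these values describe group means that share their arrays.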
